A study of Drosophila melanogaster with 596 samples.

Results

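Peptidoglycan recognition proteins (PGRPs) are the family with which flies detect or degrade the cell wall of bacteria, and the 10 family members named by the rule were looked up by gene identifier among 7422 genes and 11064 transcripts measured in female heads. Rows were found for 7 of the 10 genes, with 15 transcripts: PGRP-SA (CG11709), PGRP-SC2 (CG14745), PGRP-SB1 (CG9681), PGRP-LB (CG14704), PGRP-LF (CG4437), PGRP-LA (CG32042) and PGRP-LE (CG8995). The other 3, PGRP-SD, PGRP-SC1a and PGRP-LC, had no row and are not analysed here. The Drosophila Synthetic Population Resource is a panel of recombinant inbred lines, each a mosaic of inbred founder lines, and the samples were 596 crosses within it. In 63.4% of the crosses the mother came from subpopulation pA1 and the father from pB2, and in the other 36.6% the mother came from pA2 and the father from pB1. Each cross is 1 pool of about 300 heads from untreated F1 females of 3 to 5 days, so every cross has a genotype of its own. By the study's methods a pair of pA1 x pB2 crosses was prepared independently more than once, and the others had no replicate. No infection or other treatment was applied, and the comparison the design allows is which genes rise and fall together from cross to cross.

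In flies, peptidoglycan of the Lys type, found in many Gram-positive bacteria, is sensed in the blood and leads through a cascade of serine proteases to the Toll receptor. Peptidoglycan of the DAP type, found in Gram-negative bacteria and bacilli, is sensed at the membrane or inside the cell and leads through the Imd pathway to the transcription factor Relish. Both pathways switch on genes for antimicrobial peptides, mainly in the fat body, and several family members are amidases that cut peptidoglycan and so limit the signal.

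The deposited values are scores without a physical unit: the authors ranked each transcript to a normal distribution, regressed out subpopulation and 10 principal components, and ranked what was left to a normal distribution a second time. The expression level of a gene, and its spread in log2 units, can therefore not be read from them. Every transcript had an SD between 0.983 and 1.01 over all crosses, and values ran from -3.15 to 3.15. In 10 crosses, 8 of them from pA1 x pB2, the median over all transcripts lay more than 0.2 from 0, and the medians of all crosses ran from -0.277 to 0.637. Array and hybridisation batches are not in the labels, and their part in the results was not tested. In a bulk sample of heads, fewer cells of a type and less RNA per cell cannot be told apart.

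The 21 pairs of PGRP genes all had a positive Pearson r over the 596 crosses, between 0.0264 and 0.526 with a median of 0.175. In 16 of the pairs the relation passed the limma fit over all transcripts at a Benjamini-Hochberg adjusted p under 0.05. The share of all genes called positive with a member ran from 0.970% for PGRP-LA to 13.7% for PGRP-SB1. In 18 pairs r was positive in both kinds of cross. The pairs with the highest r joined PGRP-SB1, PGRP-LB and PGRP-LF. PGRP-SB1 and PGRP-LB are secreted or intracellular amidases for DAP-type peptidoglycan, and PGRP-LF is a membrane protein that holds back Imd signalling. For PGRP-SB1 and PGRP-LB, r was 0.526 (95% interval 0.466 to 0.582) and Spearman's rho 0.511, with an adjusted p of 1.23e-33 from limma. For PGRP-LF and PGRP-LB, r was 0.498 (0.435 to 0.556) and rho 0.494, with an adjusted p of 1.3e-30 from limma. For PGRP-LF and PGRP-SB1, r was 0.471 (0.406 to 0.531) and rho 0.477, with an adjusted p of 2.57e-27 from limma. The r of these 3 pairs held its sign within pA1 x pB2, at 0.557, 0.553 and 0.489, and within pA2 x pB1, at 0.457, 0.389 and 0.437 in the same order.

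Next came 3 pairs with r near 0.4. PGRP-SA, the blood-borne sensor of Lys-type peptidoglycan upstream of Toll, had an r of 0.429 (0.361 to 0.492) with PGRP-SB1. PGRP-LA, a regulatory member thought not to bind peptidoglycan, had an r of 0.398 (0.329 to 0.464) with PGRP-LF, which lies 2 genes away on chromosome arm 3L. PGRP-SC2, a secreted amidase best known from the gut, had an r of 0.346 (0.274 to 0.415) with PGRP-SB1. For each of these 6 pairs the permutation p of r and of rho was 1e-05, the smallest that 100000 permutations of the crosses can give.

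The 5 pairs that did not pass all held PGRP-LE, PGRP-LA or both. PGRP-LE, the sensor of DAP-type peptidoglycan inside the cell, had an r of 0.0264 (-0.0540 to 0.107) with PGRP-SA, 0.0546 (-0.0259 to 0.134) with PGRP-LA and 0.0588 (-0.0216 to 0.139) with PGRP-SC2. PGRP-LA had an r of 0.0755 (-0.00490 to 0.155) with PGRP-SA and 0.0277 (-0.0527 to 0.108) with PGRP-SC2. These intervals leave room for weak relations in either direction. With PGRP-SB1, PGRP-LB and PGRP-LF, the r of PGRP-LE was 0.114, 0.150 and 0.135. These 3 relations passed, where 11.3% of all genes were called positive with PGRP-LE. As an alternative, 10 further principal components were removed from the values: 11 pairs then passed, and the 5 calls lost were these 3 and those of PGRP-LA with PGRP-SB1 and PGRP-LB. In pA2 x pB1 alone 8 pairs passed. Leaving out the 2 crosses farthest from the median of the first gene moved r by at most 0.0145 in any pair. A test of whether the slope differs between the kinds of cross (limma interaction) made 0 calls among the 21 pairs after adjustment and 2 at an unadjusted p under 0.05.

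**Figure D1:**
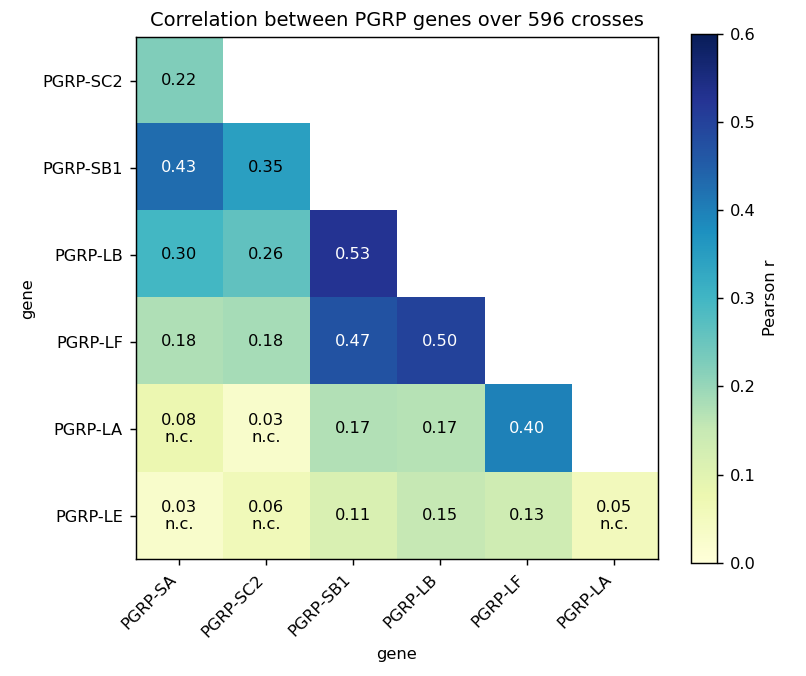
Pearson r over 596 crosses for each of the 21 pairs of PGRP genes, given in the cells and by the colour scale from 0 to 0.6. Cells marked n.c. did not pass the limma fit at an adjusted p under 0.05, and the darkest cells are the 3 pairs among PGRP-SB1, PGRP-LB and PGRP-LF.

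A principal component analysis of the 7 genes put 36.4% of their variance on a first component. Every gene had a loading of the same sign on it, which follows from the positive r of all pairs and adds no further evidence. The loadings were 0.506 for PGRP-SB1, 0.480 for PGRP-LB, 0.462 for PGRP-LF, 0.344 for PGRP-SA, 0.308 for PGRP-SC2, 0.254 for PGRP-LA and 0.151 for PGRP-LE. The second component held 16.2% and set PGRP-SC2 (0.436) and PGRP-SA (0.417) against PGRP-LA (-0.650) and PGRP-LF (-0.373). The third held 13.9% and was mainly PGRP-LE (-0.930).

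Single crosses show how far the family moved together. The highest PGRP-SB1 value, 3.15, was in a pA1 x pB2 cross where PGRP-LB stood at 1.85 and PGRP-SC2 at 1.35, while PGRP-LF stood at -0.450 and PGRP-LE at -0.924. In the pA1 x pB2 cross with the second highest PGRP-SB1 value, 2.81, every member was high, from 0.983 for PGRP-LE upward. In another cross of the same kind, PGRP-SB1 stood at 2.64, PGRP-SA at 2.81, PGRP-LB at 2.53, PGRP-LF at 1.95 and PGRP-LE at 0.320. The lowest PGRP-SB1 value, -3.15, was in a further pA1 x pB2 cross, where PGRP-SC2 stood at -2.20 and PGRP-LB at -0.0249. The genes thus stood at the same end in some crosses and apart in others.

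Each gene was then set against all 7421 other genes of the table, with 1 transcript per gene, and the share called in each direction is the background for the gene lists. For PGRP-SB1, 13.7% of genes were called with a positive slope and 16.5% with a negative slope. For PGRP-LE the shares were 11.3% positive and 18.7% negative, for PGRP-SA 10.7% and 9.96%, and for PGRP-LF 8.46% and 11.2%. For PGRP-LB they were 7.92% and 9.43%, and for PGRP-SC2 7.07% and 4.37%. PGRP-LA had 0.970% positive and 1.20% negative, the smallest share. With each cross centred on its median, the part of PGRP-LA calls with a positive slope was 59.7% in place of 44.7%, that of PGRP-SA 45.1% in place of 51.8% and that of PGRP-LB 51.8% in place of 45.7%. With 10 further components removed, the part with a positive slope was 54.2% in place of 37.7% for PGRP-LE, 63% in place of 43% for PGRP-LF, 60.6% in place of 45.3% for PGRP-SB1 and 54.4% for PGRP-LB, so which direction held more calls depended on this choice. In the pA2 x pB1 crosses alone, which are fewer, the share called in either direction was 1.91% for PGRP-LE and 1.86% for PGRP-LF, against 27.4% and 17.7% in pA1 x pB2 alone.

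Immune effectors were among the genes closest to PGRP-SB1. Its 3 closest genes were Dso2, which encodes a Daisho antifungal peptide, with an r of 0.711 (0.669 to 0.748) and a rho of 0.700, Tsf1, an iron-binding transferrin of the blood, with an r of 0.695 (0.651 to 0.734) and a rho of 0.664, and DptB, an antibacterial diptericin under Imd control, with an r of 0.689 (0.645 to 0.729) and a rho of 0.683. In pA1 x pB2 these r were 0.740, 0.739 and 0.741, and in pA2 x pB1 0.655, 0.591 and 0.593. BaraA1, the baramicin precursor, followed with 0.668, and its tandem copy BaraA2 with 0.669. These copies may share probes, so they count as 1 signal. Drs, the antifungal drosomycin, had an r of 0.512, and Drsl5 (0.0699) was not called. Of 20 antimicrobial peptide genes 3 had a row, and of 6 immune-induced peptide genes 2. Among the 20 genes with the largest absolute r, 17 were positive and 3 negative. The negative genes were AkhR (-0.534), Jabba (-0.4985) and Orct (-0.478), none from the immune lists. CG10621 (0.519) and pug (0.503), positive among the 20, are not from these lists either.

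PGRP-SB1 also rose with parts of both signalling pathways. In the Imd list, where 16 of 19 genes had a row, 5 were called positive and 1 negative, against 13.7% and 16.5% of all genes. Relish (Rel), the transcription factor at the end of the pathway, stood out with an r of 0.465 (0.399 to 0.525). The others were scny (0.239), Uev1A (0.185), Tab2 (0.134) and key (0.114), while akirin, a nuclear cofactor of Relish, had an r of -0.137. In the Toll list, where 13 of 19 genes had a row, 7 were called, all positive. They were the serpin nec (0.475), the protease SPE that cuts the Toll ligand (0.340), the Toll-pathway transcription factors Dif (0.233) and dl (0.174), the protease grass (0.225), the inhibitor cact (0.165) and Pli (0.141). Over the list the median r was 0.141, against -0.0130 over all genes. Rel and akirin were the Imd calls that remained with 10 further components removed, and the r of Dif was then 0.126.

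Genes of the melanization cascade moved with PGRP-SB1 in both directions. Of 5 genes with a row, the proteases Hayan (0.537), MP1 (0.248) and Sp7 (0.0997) and the serpin Spn27A (0.289) were positive, and PPO2, a prophenoloxidase of crystal cells, was negative (-0.207). Among haemocyte markers, where 5 of 7 had a row, srp was positive (0.395), and NimC1 (-0.367) and Pxn (-0.114) were negative. The factor srp is active in fat body as well as in blood cells, and NimC1 is a receptor of phagocytes. Of 4 fat body markers, Yp3 was called positive (0.114) and Yp2 negative (-0.111). The background for all of these lists is the 13.7% of all genes called positive and the 16.5% called negative with PGRP-SB1. The calls of MP1, Sp7, PPO2, Pxn and Yp3 were lost with 10 further components removed, and r was then 0.217 for srp and -0.209 for NimC1. The part of cell composition in these relations was not tested.

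**Figure D2:**
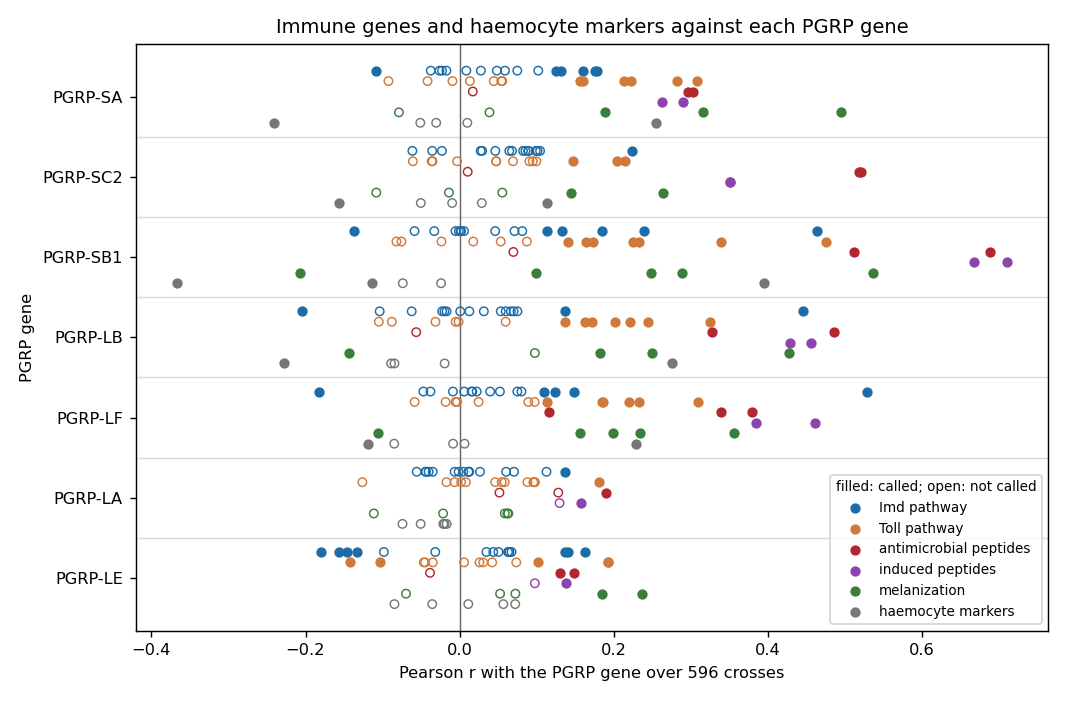
Pearson r over 596 crosses (x axis) of the genes of 5 immune lists and of haemocyte markers with each PGRP gene (y axis), 1 point per gene. Filled points passed the limma fit and open points did not. The points farthest to the right for PGRP-SB1 are Dso2, DptB and BaraA1, up to 0.711.

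PGRP-LB and PGRP-LF shared the gene with the highest or second highest r, CG8303, at 0.520 (0.459 to 0.577) for PGRP-LB and 0.555 (0.497 to 0.608) for PGRP-LF. CG8303 is not particular to these members, since its r with PGRP-SB1 was 0.552. Rel was the second gene for PGRP-LF, with an r of 0.529 (0.469 to 0.585), a rho of 0.517 and an adjusted p of 1.42e-34 from limma. Within pA1 x pB2 this r was 0.590 and within pA2 x pB1 0.406. For PGRP-LB the r with Rel was 0.446. Of the 20 genes with the largest absolute r, all 20 were positive for PGRP-LF, and 17 were positive and 3 negative for PGRP-LB. These 3, Jabba (-0.382), Gbs-76A (-0.382) and Acer (-0.363), are not from the immune lists. The effectors DptB, Drs, BaraA1 and Dso2 had r of 0.486, 0.328, 0.456 and 0.429 with PGRP-LB and of 0.380, 0.340, 0.462 and 0.385 with PGRP-LF. The third antimicrobial peptide with a row, Drsl5, passed with PGRP-LF only, at an r of 0.117, and the difference between members was not tested. Of all genes, 7.92% were called positive and 9.43% negative with PGRP-LB, and 8.46% and 11.2% with PGRP-LF. In the Imd list of 16 genes, PGRP-LB had 2 positive calls, Rel and Uev1A (0.137), and 1 negative, akirin (-0.205). PGRP-LF had 4 positive calls, adding Tab2 (0.149), key (0.110) and Uev1A (0.124) to Rel, and akirin was negative at -0.182. In the Toll list 7 of 13 genes were positive for PGRP-LB, led by nec (0.325), dl (0.245), cact (0.221) and grass (0.202), and 6 of 13 for PGRP-LF, led by nec (0.310), grass (0.233), dl (0.220) and SPE (0.186). Of 5 melanization genes, PGRP-LB had 3 positive and 1 negative, and PGRP-LF had 4 and 1. In both, Hayan had the highest r, at 0.427 and 0.357, and PPO2 was the negative gene, at -0.144 and -0.106. The haemocyte markers srp and NimC1 were called with opposite signs, at 0.276 and -0.228 for PGRP-LB and 0.230 and -0.119 for PGRP-LF. Of the 4 fat body markers, to was positive (0.160 for PGRP-LB and 0.182 for PGRP-LF) and Yp2 negative (-0.139 and -0.135). With PGRP-LF, 1 of 4 neuron markers, para (-0.132), and 1 of 3 muscle markers, Mhc (-0.136), were negative, and the others were not called. The part of these cell types in the results was not tested. With 10 further components removed, PGRP-LB lost the calls of Uev1A, Dif, MP1 and PPO2, and its r with srp was 0.143 and with NimC1 -0.146. PGRP-LF lost those of Tab2, key, Uev1A, spz, MP1, Sp7, PPO2, srp, NimC1, para and Mhc, and its r with nec was 0.202 and with Hayan 0.229.

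PGRP-SA had its highest r with Hayan, at 0.495 (0.432 to 0.554) and a rho of 0.470, which was 0.530 in pA1 x pB2 and 0.398 in pA2 x pB1. PGRP-SB1 came second, followed by Tsf1 at 0.385 (0.315 to 0.451). Spn27A (0.316) and Sp7 (0.189) were the other melanization genes called. In the Toll list, the pathway this sensor feeds, 6 of 13 genes were called, all positive, against 10.7% of all genes. PGRP-SB1 and PGRP-LB had 7 of 13. With PGRP-SA the genes were nec (0.309), grass (0.282), SPE (0.222), Dif (0.213), the ligand spz (0.160) and dl (0.157). In pA2 x pB1 their r was 0.181, 0.0919, 0.118, 0.0906, 0.160 and 0.114. Of the 31 named relations of PGRP-SA that had passed, 6 passed in pA2 x pB1 alone. In the Imd list 5 of 16 were positive and 1 negative, against 10.7% and 9.96% of all genes. At the top stood imd (0.179) and Rel (0.175), and at the bottom ben (-0.109). DptB (0.304), Drs (0.297), Dso2 (0.290) and BaraA1 (0.263) all passed. In pA2 x pB1 these last r were 0.0851, 0.159, 0.123 and 0.0263, against 0.410, 0.363, 0.368 and 0.357 in pA1 x pB2. For these 4 effectors the interaction test made no call, with adjusted p from limma between 0.0752 and 0.483. Of the Imd calls, Rel alone remained with 10 further components removed, those of spz and Sp7 were lost, and the r of Dif was 0.135.

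PGRP-SC2 was closest to a pair of antimicrobial peptides, DptB with an r of 0.521 (0.460 to 0.577) and Drs with 0.519 (0.457 to 0.575), with rho of 0.512 and 0.526. Within pA1 x pB2 they stood at 0.556 and 0.545, and within pA2 x pB1 at 0.469 and 0.481. Drsl5, the third antimicrobial peptide with a row, had an r of 0.0106 and was not called. After DptB and Drs came CG42807 at 0.375, with BaraA1 at 0.351 and Dso2 at 0.352. The pathway lists are set against the 7.07% of all genes called positive with PGRP-SC2. In the Imd list Rel (0.224) was the 1 call of 16, and in the Toll list there were 3 of 13, grass (0.215), nec (0.204) and SPE (0.147). Hayan (0.264) and Spn27A (0.144) passed among melanization genes. The genome holds close relatives of PGRP-SC2, and whether their transcripts bind its probes was not tested.

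**Figure D3:**
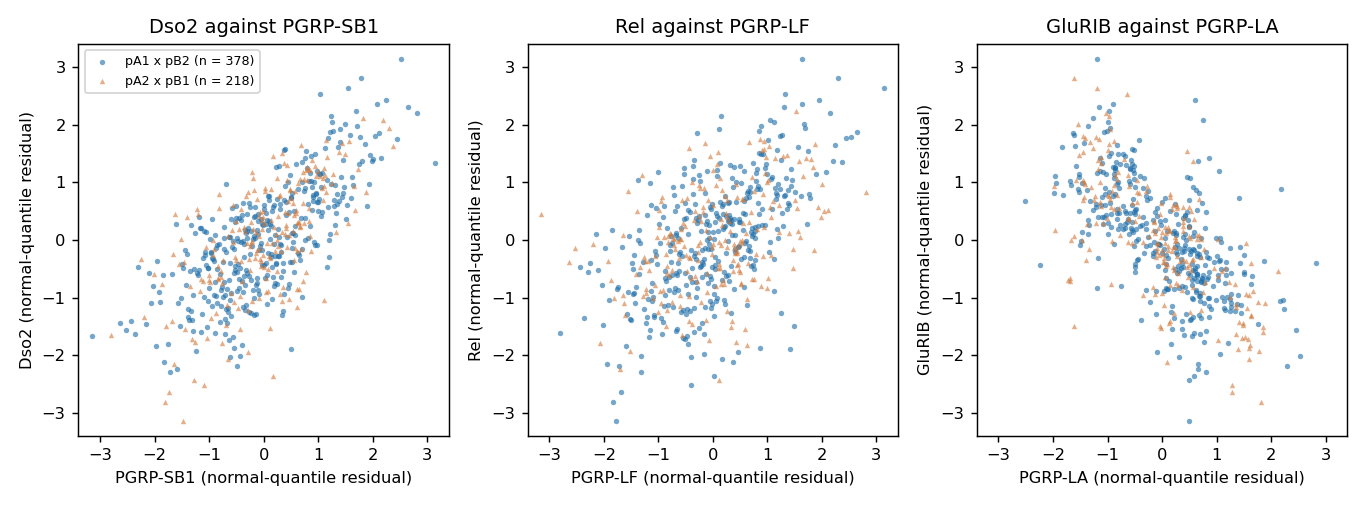
Values of single crosses, in normal-quantile residuals on both axes, for Dso2 against PGRP-SB1 (left), Rel against PGRP-LF (middle) and GluRIB against PGRP-LA (right, mean of 3 distinct PGRP-LA transcripts). Circles are pA1 x pB2 crosses and triangles pA2 x pB1 crosses, and in both kinds the points run upward in the first 2 plots (r of 0.711 and 0.529 over all crosses) and downward in the last (r of -0.648).

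The 3 genes closest to PGRP-LE were all negative and none was from the immune lists: ND-B22, a subunit of respiratory complex I, at -0.369 (-0.436 to -0.298), NdufV3, another subunit of that complex, at -0.331 (-0.400 to -0.257), and Task6, a potassium channel, at -0.330 (-0.399 to -0.256). Of the 20 genes with the largest absolute r, each by its first transcript, 4 were positive. The r of the 3 closest genes was -0.173, -0.177 and -0.145 with 10 further components removed. For ND-B22 the r was -0.481 in pA1 x pB2 and -0.0902 in pA2 x pB1, and this difference passed the interaction test with an adjusted p of 0.0061 from limma. The Imd list gave 3 positive and 4 negative calls of 16, where 11.3% of all genes were called positive and 18.7% negative. Tak1 (0.163), Rel (0.141) and key (0.136) were positive, and eff (-0.179), Diap2 (-0.157), dnr1 (-0.146) and ben (-0.133) were negative. In the Toll list cact and dl (both 0.193) and tub (0.102) were positive and grass (-0.143) and GNBP3 (-0.103) negative. DptB (0.148), Drs (0.130) and BaraA1 (0.138) passed with low r, and MP1 (0.237) and Sp7 (0.185) passed among melanization genes. Some neuron, glia and muscle markers were called with PGRP-LE as well, as were 30% of all genes. Of 4 neuron markers 1 was positive (elav, 0.120) and 2 were negative (nSyb, -0.186, and Syt1, -0.162). The 1 glia marker with a row, moody (-0.188), was negative. Of 3 muscle markers, Mhc (-0.155) was negative, and up (0.0302) and Act88F (0.0639) were not called. Of the fat body markers, to was positive (0.136) and Yp3 negative (-0.117). The part of these cell types in the result was not tested. With 10 further components removed, 24 of the 30 named relations of PGRP-LE that had passed were lost, and those with ND-B22, NdufV3, Task6, Tak1, Rel and Yp3 remained. Every Toll, antimicrobial peptide and melanization call named for PGRP-LE was among those lost. In pA2 x pB1 alone 3 of the 30 passed.

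The genes closest to PGRP-LA lay near it on the chromosome. The gene next to it on arm 3L, GluRIB, which encodes a glutamate receptor subunit, had an r of -0.648 (-0.692 to -0.599) and a rho of -0.675, with an adjusted p of 1.61e-52 from limma. It was followed by CG3552 at -0.510 (-0.567 to -0.448), which lies 39 genes away, and Bet3, a subunit of a vesicle tethering complex, at -0.480 (-0.540 to -0.416), which lies 32 genes away. For GluRIB the r was -0.624 in pA1 x pB2 and -0.686 in pA2 x pB1. Of the 20 genes with the largest absolute r with PGRP-LA, each by its first transcript, 20 were on 3L, which holds 18.5% of all genes. Of these, 19 lay within 100 genes of it in the order of the gene table. The r was positive for 10 of the 20 and negative for 10. Of the measured genes within 100 places, 16 were called positive and 22 negative, or 35.5%, against 1.68% of the 7314 genes elsewhere. For PGRP-LF, which lies 2 places from PGRP-LA, the shares were 31.1% near and 19.5% elsewhere, and for PGRP-SB1 on the same arm 32.1% and 30.2%. For PGRP-LB the share near it, 38.7%, was higher than that of PGRP-LA, with 17% elsewhere. It was 27.1% and 20.5% for PGRP-SA, 36.5% and 29.8% for PGRP-LE, and 15.1% and 11.4% for PGRP-SC2. Of the top 20 genes, 1 each lay within 100 genes for PGRP-LF, PGRP-LE and PGRP-SC2, and 0 for PGRP-SB1, PGRP-SA and PGRP-LB. On the member's own arm lay 10 for PGRP-LE and 6 for PGRP-SA (X, 17.7% of all genes) and 9 for PGRP-SC2 (2R, 18.9%). The number was 3 for PGRP-LF and 1 for PGRP-SB1 (3L), and 2 for PGRP-LB (3R, 24.8%). These shares are descriptions, since neighbouring genes are not independent.

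**Figure D4:**
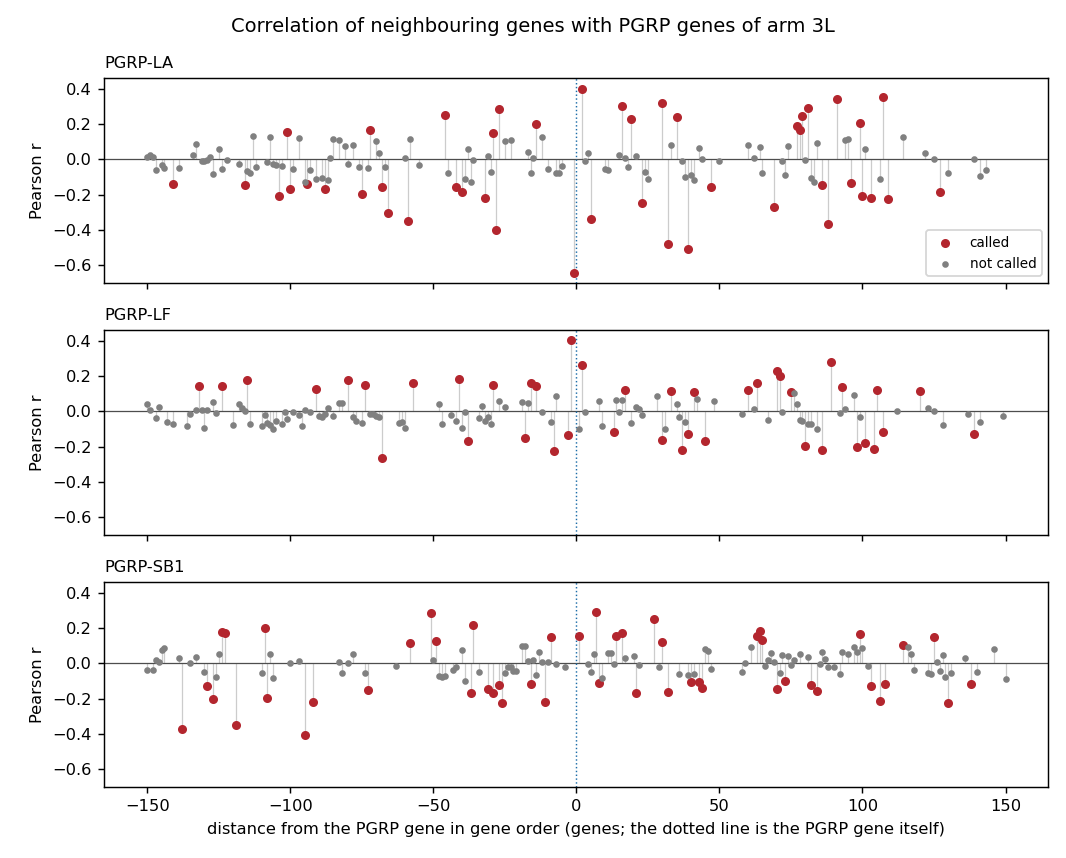
Pearson r over 596 crosses (y axis) of each measured gene within 150 places of PGRP-LA, PGRP-LF and PGRP-SB1 (x axis, distance in gene order on arm 3L), with called genes in red. The points farthest from 0 for PGRP-LA are GluRIB at -0.648 and CG3552 at -0.510, whereas for PGRP-LF the highest point is PGRP-LA itself.

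Of the 39 genes of the immune lists with a row, 4 (10.3%) were called positive with PGRP-LA, against 0.970% of all genes. They were Drs (0.190), BaraA1 (0.158), grass (0.181) and Uev1A (0.137). No melanization gene was called, and DptB, at an r of 0.128, and Rel, at 0.113, did not. All 3 photoreceptor markers with a row passed with low r, ninaE (the main rhodopsin, 0.155), norpA (0.144) and inaD (0.135), and their part in the values of PGRP-LA was not tested. The calls of BaraA1, Uev1A, norpA and inaD were lost with 10 further components removed. PGRP-LA is also the member with transcripts that differ. CG32042-PC, CG32042-PF and CG32042-PG held identical values, and CG32042-PC had an r of 0.987 with CG32042-PE and 0.727 with CG32042-PD. GluRIB had an r of -0.638 with CG32042-PC, -0.559 with CG32042-PD and -0.632 with CG32042-PE, and PGRP-LF 0.406, 0.305 and 0.413 with the same transcripts. Transcripts of a gene can share probes, so they are not separate evidence. The 5 transcripts of PGRP-LB held identical values and count as 1.

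The nearest measured genes on either side of the other members were read in the same way. Beside PGRP-SA on the X lie CG1572 (0.210) and Polr2A (0.110). PGRP-LE, on the X, lies between CG15602 (-0.0477) and sd (-0.0641), neither of which passed. The nearest measured genes to PGRP-SB1 are Dbp73D (0.154) and Dab (-0.0185, not called), and to PGRP-SC2 they are CG8738 (0.296) and CG14767 (0.0767, not called). PGRP-LB on 3R lies between CG17230 (0.171) and dpr5 (0.154), and its interval overlaps that of CG17230 in the gene table, so probes of one could measure the other. UGP, next to PGRP-LF, had an r of -0.101 and did not pass, and its interval also overlaps that of PGRP-LF.

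Read gene by gene, a few immune genes passed with nearly the whole family. Drs and BaraA1 were called positive with 7 of the 7 members, and DptB and Rel with 6. These numbers were 6 for Drs, 5 for BaraA1, 5 for DptB and 6 for Rel with 10 further components removed, and in pA2 x pB1 alone 5, 4, 4 and 3. Of all genes, between 0.970% (PGRP-LA) and 13.7% (PGRP-SB1) were called positive with a single member. How many of all genes pass with 6 or 7 members was not counted. The members are also correlated with each other, so the counts of members given here are descriptions. The protease grass was positive with 6 and negative with PGRP-LE. The haemocyte marker NimC1 was negative with 5 and PPO2 with 3, and srp was positive with 5, against 3, 0 and 3 with 10 further components removed. The phototransduction scaffold inaD was positive with 6, at an r of up to 0.244 with PGRP-SB1, but with 0 members once 10 further components were removed, and with 0 in pA2 x pB1 alone. Gut markers, of which 2 of 7 had a row, gave positive calls of Amy-p with PGRP-SB1 (0.221) and PGRP-SA (0.203) and negative calls of Jon99Ciii with PGRP-LF (-0.129) and PGRP-SA (-0.117). The 3 further PGRP genes of the fly, PGRP-SB2, PGRP-SC1b and PGRP-LD, had no row.

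The authors removed subpopulation by regression before the second ranking, so a mean level cannot be compared between the kinds of cross, although differences of means of up to 0.444 remained in single transcripts. The spread was compared instead. Over all genes, the mean absolute deviation from the group median was larger in pA2 x pB1 for 5.96% and smaller for 13.1% (limma, adjusted p under 0.05). PGRP-SA ran from -3.15 through a median of -0.0332 to 3.15 in pA1 x pB2 (SD 1.06) and from -2.53 through 0.0767 to 2.11 in pA2 x pB1 (SD 0.857). Its mean absolute deviation was 0.853 and 0.683, with an adjusted p of 0.0105 from limma. PGRP-LB was likewise tighter in pA2 x pB1, with 0.848 against 0.710 and an adjusted p of 0.0422 from limma, which rose to 0.0581 with squared deviations and to 0.0503 after removing 10 further components. The crosses of the 2 kinds overlapped over most of their range in both genes.

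The transcripts of PGRP-LA went opposite ways. CG32042-PC was wider in pA2 x pB1 (0.913 against 0.730, adjusted p 0.00500 from limma), and CG32042-PD was narrower there (0.643 against 0.886, adjusted p 0.000107 from limma). CG32042-PE stood with CG32042-PC at 0.880 against 0.747, with an adjusted p of 0.0516 from limma that was under 0.05 in all 4 alternatives. The difference was not called for PGRP-SB1, PGRP-SC2, PGRP-LE or PGRP-LF, with adjusted p from limma of 0.106, 0.115, 0.425 and 0.947.

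**Figure D5:**
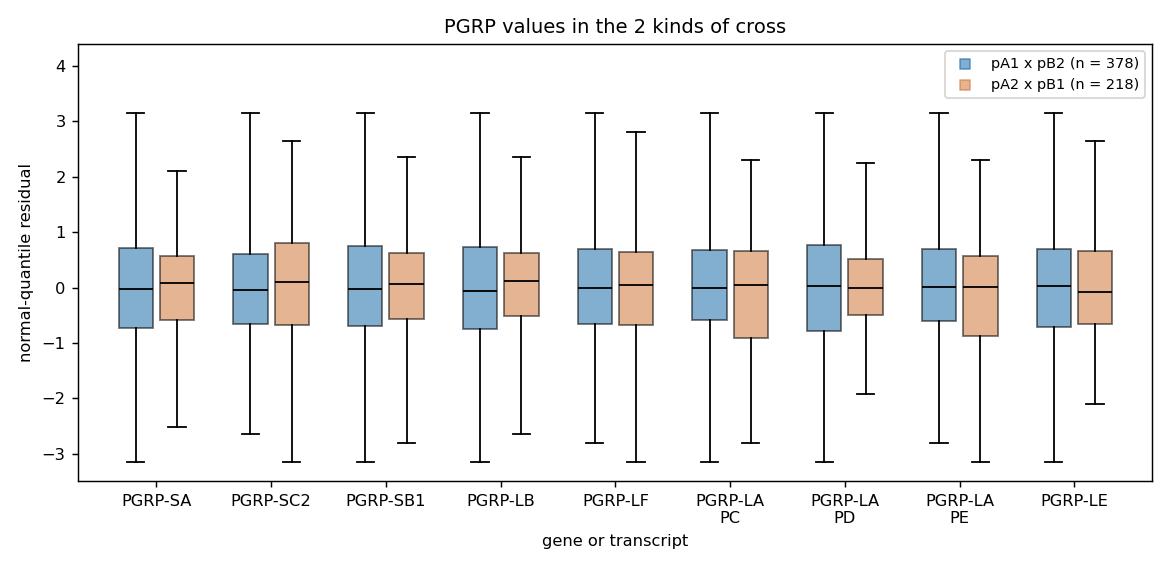
Values of the 9 distinct PGRP transcripts or genes in the 2 kinds of cross, in normal-quantile residuals. Boxes run from the lower to the upper quartile with the median as a line, and whiskers reach the lowest and highest cross, with PGRP-SA and transcript PD of PGRP-LA narrower in pA2 x pB1 and transcript PC of PGRP-LA wider.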

How the data were processed

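The authors hybridised head RNA of 596 crosses (378 pA1 x pB2 and 218 pA2 x pB1) to NimbleGen arrays, background corrected and normalized them with oligo, left out probes with several sequence variants, or with 1 that affected their signal, and transcripts under 4 probes, and combined probes by RMA. Before mapping they also left out transcripts with expression below a level where replicate measurements were less repeatable. The number they tested, 11064, is the number of transcripts here. Whether genes without a row were lost at this step was not tested. The deposited values are a score: normal-quantile residuals from subpopulation and 10 principal components. They were used as they are, with 0 missing values. A gene with several transcripts was taken as the mean of its distinct ones, and every other transcript was regressed on it with limma (two-sided, Benjamini-Hochberg over all transcripts, calls at adjusted p under 0.05). Each other gene was counted by its first transcript, and the 3 closest genes were ranked by their transcript of largest absolute r. Pearson's r and Spearman's rho had 100000 permutations of the crosses. Spread was tested as absolute deviation from the group median. Members and gene lists (Imd, Toll, antimicrobial peptides, induced peptides, melanization, markers of 7 tissues or cell types) were chosen with earlier results of these data known. Named genes are the members, the 3 closest genes of each, list genes that passed, and the nearest measured neighbours; CG32042 transcripts, BaraA2, single crosses and uncalled genes were named after their values were seen. Symbols and gene order came from RefSeq (Release 6), with 7349 of 7422 genes matched. Founder classes, which the labels do not give, are not used here. The fits were tested on simulated data. Alternatives changed the transcript, ranks, kind of cross, centring, components, crosses and threshold. R 4.3.3 with limma 3.58.1 fitted the models, and scipy 1.17.1, matplotlib 3.10.9, pandas 2.3.3 and numpy 2.4.6 under Python 3.11.15 did the rest. No sequences are printed.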

Additional observations from a re-analysis of the deposited data

Results flagged for a closer look

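The relation between PGRP-LE and ND-B22, the complex I subunit, differed between the kinds of cross. The slope of ND-B22 on PGRP-LE was higher by 0.436 in pA2 x pB1 than in pA1 x pB2, that is, less negative, with r of -0.0902 and -0.481. The p adjusted over all transcripts was 0.0061 (limma interaction). Over all genes, 51 of 7421 interactions were called for PGRP-LE, against 34 for PGRP-SA, 6 for PGRP-SB1, 2 for PGRP-LA and 1 each for PGRP-LF and PGRP-SC2. For PGRP-LB limma called 0, with 583 at an unadjusted p under 0.05. No other relation named in the report passed this test.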

How the results depend on the processing

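The share of the 7421 other genes called was 20.7% for PGRP-SA, 30% for PGRP-LE, 2.17% for PGRP-LA, 19.7% for PGRP-LF, 30.2% for PGRP-SB1, 11.4% for PGRP-SC2 and 17.4% for PGRP-LB. In the pA2 x pB1 crosses alone, which are fewer, it was 10.6%, 1.91%, 0.579%, 1.86%, 9.47%, 3.18% and 4.64% in that order, and 8 of 21 pairs of members passed in place of 16. In pA1 x pB2 alone PGRP-SA had 11.8%. With 10 further components removed the share was 8.97% for PGRP-SA, 6.91% for PGRP-LE, 10.1% for PGRP-LF, 16.9% for PGRP-SB1 and 3.48% for PGRP-SC2. At an adjusted p under 0.01 it was 12.2% for PGRP-SA, 19% for PGRP-LE, 0.916% for PGRP-LA, 10.6% for PGRP-LF, 5.04% for PGRP-SC2 and 10.6% for PGRP-LB. With its first transcript PGRP-LA had 3.52%. The other shares stayed within 1.5 times their value, under ranks, centring and without the 10 crosses of outlying median among others, and the count of genes that differ in spread ran from 1315 to 1469 against 1416.

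Of the named relations that passed, 33.5% kept their call in pA2 x pB1 alone, 60% with 10 further components removed, 83.2% at an adjusted p under 0.01, 88.6% in pA1 x pB2 alone, 94.6% with ranks, 97.3% with centring and 97.8% without the outlying crosses. Some r changed sign. In pA2 x pB1 these were PGRP-SA with PGRP-LE (-0.0980), PGRP-LA (-0.0489), Polr2A (-0.0706) and Rel (-0.0309), PGRP-LA with PGRP-SC2 (-0.00289), PGRP-LE with Yp3 (0.0121), PGRP-LF with NimC1 (0.0302), PGRP-SB1 with Pxn (0.0269) and norpA (-0.0565), and PGRP-LB with Dif (-0.00258). With 10 further components removed they were PGRP-LA with PGRP-SC2 (-0.00497), PGRP-SA with Tak1 (-0.0414), PGRP-LE with Diap2 (0.0105), MP1 with PGRP-LF (-0.0854), PGRP-SB1 (-0.0240) and PGRP-LB (-0.0146), and PGRP-SB1 with Tab2 (-0.0944), Yp3 (-0.0159), Pxn (0.00372), norpA (-0.0426) and inaD (-0.00663). There the difference in spread changed sign for PGRP-LE (0.00565) and PGRP-LF (0.0675). No r changed sign under centring, ranks, the first transcript or without the outlying crosses. The causes were not tested. No paired analysis was possible because the kinds of cross share no parents. Normal-quantile residuals hold no signal over background, so no limit from dim probes can be given.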
